A study of Mus musculus with 8 samples.

Results

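The aminoacyl-tRNA synthetases are the enzymes that join each amino acid to its transfer RNA. Their genes were taken by name from the table of read counts: 36 synthetase genes were listed, and all 36 were found among its 24469 genes. Of these, 20 encode enzymes of the cytosol and 16 enzymes of mitochondria, and Lars2, the mitochondrial leucyl enzyme, was treated apart from the other 15 because of its exceptional counts. Islets, the endocrine clusters of the pancreas, were picked by hand from mice aged 8 weeks, and their RNA was sequenced. Of these mice 4 were wild-type C57BL/6 animals and 4 carried the RpL13a snoRNA knockout on a C57BL/6 background. The knockout removes U32a, U33, U34 and U35a, small nucleolar RNAs of the box C/D type whose host is Rpl13a, a ribosomal protein gene. The labels used here do not say how the allele was made or which sex the mice were, and each library stands for 1 mouse. The question was whether synthetase transcripts differ between islets that have these snoRNAs and islets that lack them.

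Every cell needs a synthetase for each amino acid, so these genes are expressed in all tissues. The enzymes fall into class I and class II by the fold of their catalytic site. Mitochondria use separate, nuclear-encoded enzymes for most amino acids, while the glycyl enzyme (Gars) and the lysyl enzyme (Kars) serve both compartments from a single gene. In the cytosol several synthetases are held in the multisynthetase complex. Many cytosolic synthetase genes are also targets of ATF4, the transcription factor of the amino acid response, which binds a composite C/EBP-ATF element.

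The core of that element was searched for in the promoters, since it is a known element of several of these genes. The letters searched were TGATGNAA, or TTNCATCA on the other strand, in a window of 250 bases before to 50 bases after each start in RefSeq (build GRCm38.p6, which is not the mm9 build of the submitters' processing notes). Promoters were matched for 27 of the 36 genes. The core stood in 5 of 13 cytosolic promoters (38.5%) and in 0 of 14 mitochondrial promoters, against 4.51% of the 27025 genes in the same table and 9 of 29 genes (31%) in a list of amino acid response genes. The 5 promoters that hold it are shown from 120 bases before to 30 bases after the start, 5′ to 3′. Only cytosolic genes among those searched held the core. Capitals mark the core.

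Aars (chr8:111033722-111033871, + strand): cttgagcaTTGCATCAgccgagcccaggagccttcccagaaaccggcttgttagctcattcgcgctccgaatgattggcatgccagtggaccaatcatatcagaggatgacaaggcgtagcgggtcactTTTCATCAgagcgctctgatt
Gars (chr6:55037881-55038030, + strand): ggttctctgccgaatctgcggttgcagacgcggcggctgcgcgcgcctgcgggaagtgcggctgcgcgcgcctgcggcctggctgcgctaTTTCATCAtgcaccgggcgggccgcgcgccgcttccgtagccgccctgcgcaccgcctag
Iars (chr13:49682010-49682159, + strand): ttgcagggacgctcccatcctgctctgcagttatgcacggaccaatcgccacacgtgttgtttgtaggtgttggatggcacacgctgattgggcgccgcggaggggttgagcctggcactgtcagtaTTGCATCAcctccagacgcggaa
Tars (chr15:11399629-11399778, - strand): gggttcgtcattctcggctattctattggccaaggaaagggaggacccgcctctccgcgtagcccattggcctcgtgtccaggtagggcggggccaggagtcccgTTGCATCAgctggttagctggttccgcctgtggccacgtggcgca
Yars (chr4:129189783-129189932, + strand): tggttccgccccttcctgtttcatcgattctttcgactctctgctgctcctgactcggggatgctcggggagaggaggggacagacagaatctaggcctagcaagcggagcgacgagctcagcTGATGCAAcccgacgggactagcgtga

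Iars, Tars and the upstream copy of Aars read TTGCATCA, and Yars reads its reverse complement, TGATGCAA. The core of Gars and the second copy of Aars read TTTCATCA. These are matches of letters only, and binding was not measured here.

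The libraries held 21.2 to 41.1 M assigned counts. Counts on the targeted snoRNAs were few but went with the labels, with 1 to 7 in each wild-type library and 0 in each knockout library, all of them on U32a and U33, since U34 and U35a had 0 in every library. The host gene Rpl13a had 1709 to 4273 counts. The 12 beta-cell markers, all present, took 10.05 to 24.0% of counts in wild type and 8.66 to 16.4% in knockout, and 1 of the 12 had the higher mean in knockout. On the TMM scale their sums did not overlap, at 134796 to 183983 CPM in wild type and 105847 to 134513 CPM in knockout, and the part of this difference in the results was not tested. Exocrine RNA varied more between libraries. The summed share of the 34 acinar markers in the table was 26.3, 2.04, 14.4 and 4.96% in the wild-type libraries (replicates 1 to 4, the order used throughout) and 22.0, 5.31, 27.7 and 17.6% in the knockout libraries, and 33 of the 34 had the higher mean in knockout. The acinar share itself averaged 11.9 ± 10.9% in wild type and 18.2 ± 9.51% in knockout (SD, n = 4, exact permutation p = 0.400). In such mixed tissue a transcript carried by fewer cells and a transcript lower in each cell cannot be told apart. Xist was high (11458 to 20935 counts) in wild-type replicate 4 and knockout replicates 1 and 4 and at most 158 counts elsewhere.

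Cytosolic synthetase transcripts were several times as abundant per length as mitochondrial ones. Levels are given as CPM (counts scaled to a library of 1000000 after TMM normalization) per kb of the longest coding transcript in GENCODE M21. The median over the cytosolic genes was 4.79 CPM per kb in wild type, with a range of 2.88 to 18.3, and over the 15 mitochondrial genes it was 1.32, with a range of 0.116 to 4.43. Only Rars2 and Ears2 among the mitochondrial genes exceeded the lowest cytosolic gene, Vars. The highest levels belonged to the lysyl enzyme Kars at 18.3 ± 2.36 CPM per kb (SD, n = 4), the bifunctional glutamyl-prolyl enzyme Eprs at 14.97 ± 1.86 and the tryptophanyl enzyme Wars at 13.7 ± 1.76. Kars stood above Eprs within each wild-type library, although their ranges overlapped, while Eprs and Wars changed order between libraries. At the lower end stood the valyl enzyme Vars at 2.88 ± 0.60 and the aspartyl enzyme Dars at 3.33 ± 0.40 CPM per kb. Among mitochondrial genes the arginyl enzyme Rars2 was highest at 4.43 ± 0.45 CPM per kb, ahead of the glutamyl enzyme Ears2 at 2.89 ± 0.46 and the phenylalanyl enzyme Fars2 at 2.58 ± 0.33. The asparaginyl enzyme Nars2 at 0.418 ± 0.083 and the methionyl enzyme Mars2 at 0.116 ± 0.041 were lowest. Ears2 and Fars2 overlapped between libraries, while Rars2 stood above both in all 4. Mars2 is divided by an annotated transcript of 11294 bases, and its level before that division, 1.31 CPM, was close to the 1.31 CPM of Yars2. The summed levels differed little between the genotypes. The cytosolic genes summed to 467 ± 56.9 CPM in wild type and 486 ± 28.0 in knockout, and the mitochondrial genes to 58.5 ± 2.62 and 57.5 ± 3.05 CPM.

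**Figure D1:**
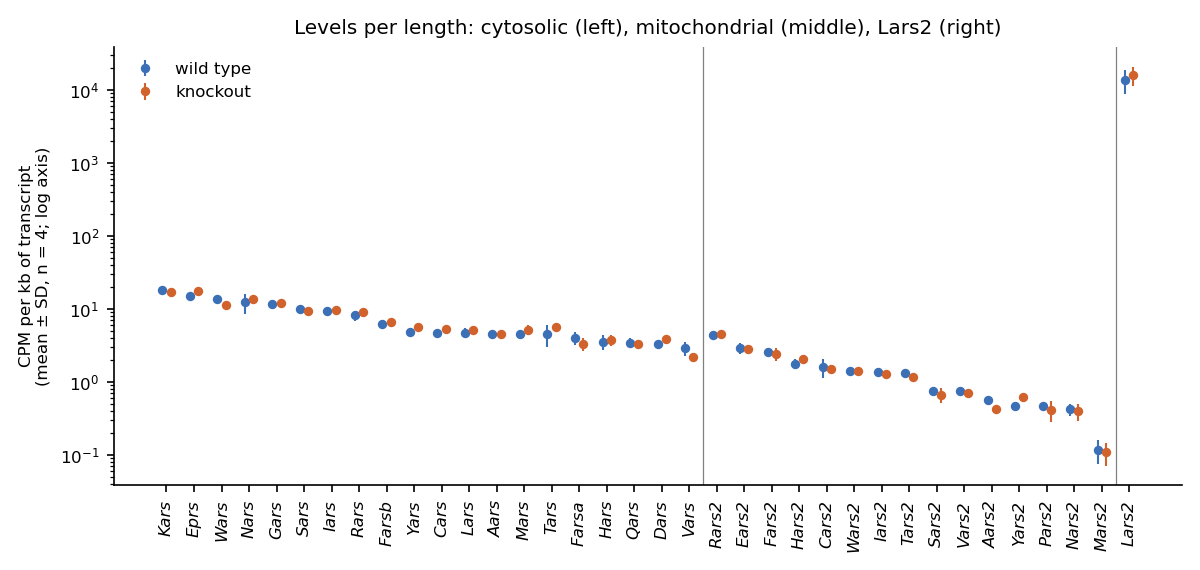
Level per length of each synthetase gene, as CPM per kb of transcript on a log axis, with points for the mean and bars for the SD of 4 wild-type (blue) and 4 knockout (orange) libraries. Cytosolic genes run from 2.88 to 18.3 in wild type, mitochondrial genes from 0.116 to 4.43, and Lars2 stands at 13738.5.

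Lars2 stood far outside this range in every library. Its level per length in wild type was 13738.5 ± 4897 CPM per kb, and its counts were 81.4 to 144 times the sum of the other 35 synthetase genes in the same library. Its share of assigned counts was 5.97, 5.001, 5.33 and 5.19% in the wild-type libraries and 6.47, 5.66, 5.18 and 5.53% in the knockout libraries. The genotypes overlapped, with means of 5.37 ± 0.42% and 5.71 ± 0.55%, and the difference of 0.337 percentage points had an exact two-sided permutation p of 0.400 over 70 splits, whose smallest p is 0.0286. The difference was 0.0838 points without knockout replicate 1 and 0.536 points without wild-type replicate 1, moved by a single library in each direction. When Rn45s, the ribosomal RNA precursor and the largest row of the table, was taken out of the total, the difference was 0.710 points (exact permutation p = 0.371).

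The proportion of Rn45s to Lars2 counts stayed in a narrow range. There were 6.14, 7.39, 6.95 and 7.50 Rn45s counts per Lars2 count in the wild-type libraries and 6.39, 6.75, 7.16 and 6.64 in the knockout libraries. That ratio differed by less than its spread between the genotypes (6.996 ± 0.62 and 6.74 ± 0.32, exact permutation p = 0.486). Across the 8 libraries the shares of both rows gave a Pearson r of 0.61 (exact permutation p = 0.110) and a Spearman rho of 0.12 (exact permutation p = 0.793). Without the libraries farthest from the median Rn45s share, knockout replicate 1 and wild-type replicate 4, r was 0.056 over 6 libraries, so the relation rests on those libraries. With the share of Lars2 taken of the total without Rn45s, r was 0.76 and rho 0.19 (exact permutation p = 0.0587 and 0.665). None of the 4 coefficients passed when adjusted together (the smallest adjusted p was 0.219). The origin of the reads assigned to Lars2 was not tested.

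**Figure D2:**
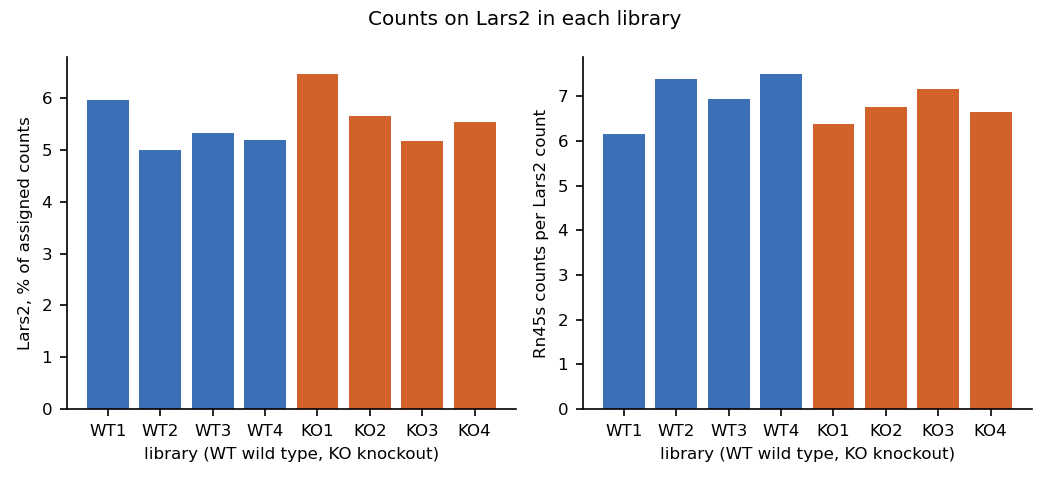
Lars2 counts as a percentage of assigned counts (left) and Rn45s counts per Lars2 count (right) in each library, with wild type in blue and knockout in orange. The share runs from 5.001 to 6.47% and the ratio from 6.14 to 7.50, and the genotypes overlap in both.

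On the TMM scale Lars2 looked more variable, and the variation followed the exocrine RNA. It was at 80077, 37404, 54185 and 42324 CPM in the wild-type libraries and at 80776, 42975, 73831 and 49832 CPM in the knockout libraries. The highest values were in wild-type replicate 1 and knockout replicates 1 and 3, the libraries with most acinar RNA, whose TMM factors of 0.701 to 0.801 were the smallest. The log2 fold change of knockout over wild type was 0.21 ± 0.27 (SE, edgeR quasi-likelihood adjusted p = 0.701). It was 0.043 without knockout replicate 1 and 0.45 without wild-type replicate 1, and -0.029 in a fit that includes acinar share.

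No synthetase gene differed between the genotypes past the threshold. All 36 genes were tested, and 0 had an adjusted p below 0.05 (edgeR quasi-likelihood, adjusted over 13617 genes), where 0.0147% of all genes did. At an unadjusted p under 0.05 there were 2 of 36 (5.56%), both lower in knockout, where 18.7% of all genes reached that level in either direction and 10.3% as lower ones. DESeq2 passed 0 of the 30 members to which it gave an adjusted p, with 3 of 36 at an unadjusted p under 0.05 and 517 genes past the threshold in all. It gave none to the other 6 (Mars2, Yars2, Aars2, Nars2, Pars2 and Sars2). Limma-voom passed 0 of 36, with 1 at that level. Adjusted p-values over the family ran from 0.223 to 0.982 in edgeR, and standard errors of the log2 fold changes from 0.096 to 0.31. Log2 fold changes lay between -0.41 and 0.39. The groups did not overlap for 1 of 36 genes, Yars2, which was higher in each knockout library, where 3.68% of all genes were separated in that direction and 4.66% in the other.

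The compartments leaned in different directions by small amounts. Of the cytosolic genes 13 of 20 had a positive log2 fold change, with a median of 0.088, while 11 of the 15 mitochondrial genes had a negative one, with a median of -0.091. Over all genes tested the median was 0.0098, and 48.7% were negative. Relative to that median the cytosolic genes stood at 0.078 and the mitochondrial genes at -0.10, and without any composition factor, where the median of all genes was -0.11 and the cytosolic median turned to -0.021, at 0.090 and -0.11. The size of the cytosolic lean depended on single libraries. Without wild-type replicate 2, the library poorest in acinar RNA, the cytosolic median was 0.0076, without wild-type replicate 1, rich in it, 0.15, and 0.021 in a fit that includes acinar share. The mitochondrial median was -0.029, -0.039 and -0.050 when knockout replicate 4, wild-type replicate 3 or knockout replicate 2 was left out.

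**Figure D3:**
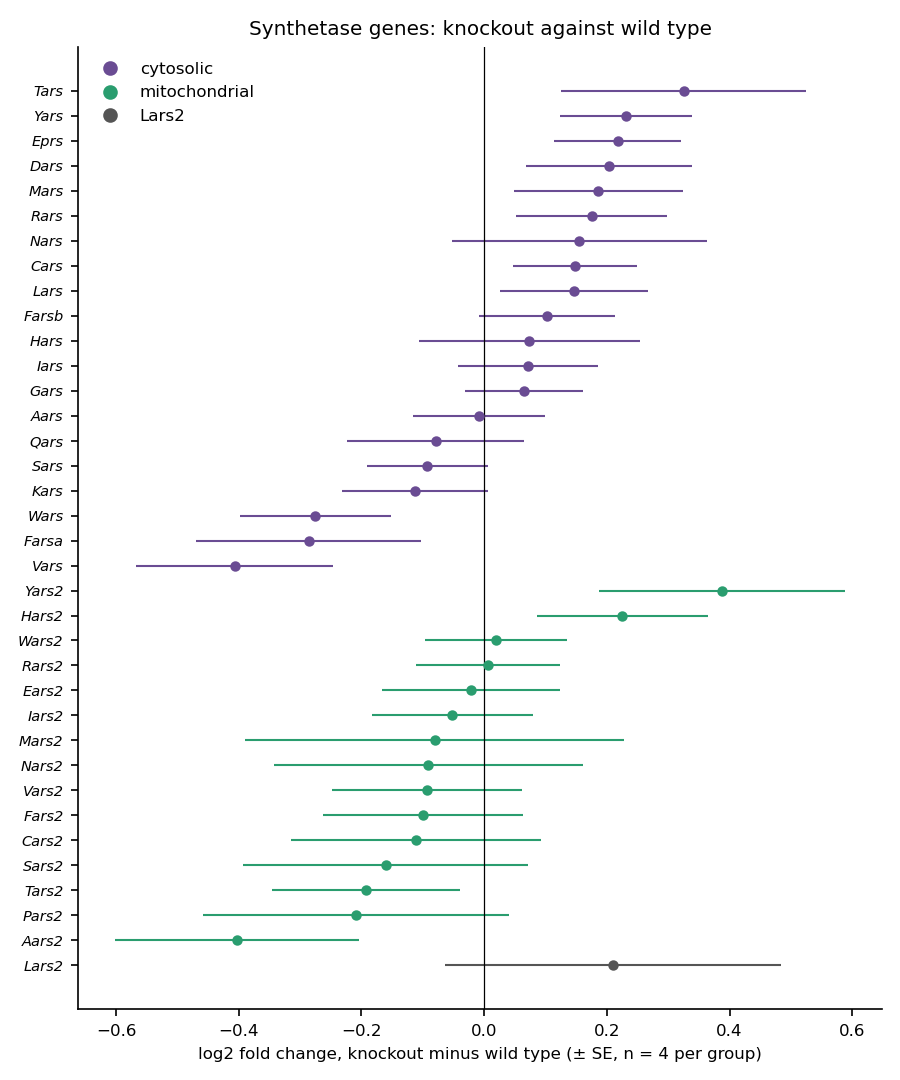
Log2 fold change of knockout over wild type with its SE for each of the 36 genes, cytosolic in purple, mitochondrial in green and Lars2 in grey, n = 4 libraries per group. Cytosolic genes run from -0.41 (Vars) to 0.33 (Tars) and mitochondrial genes from -0.40 (Aars2) to 0.39 (Yars2), and 0 of 36 passed an adjusted p of 0.05.

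Among the cytosolic enzymes of class I, 7 of 10 had positive values, with a median of 0.15. Mars, Rars, Cars, Lars and Iars, which charge methionine, arginine, cysteine, leucine and isoleucine tRNAs, had log2 fold changes of 0.19, 0.17, 0.15, 0.15 and 0.071, and the glutaminyl enzyme Qars -0.079. None of these 6 exceeded its error by enough to reach an unadjusted p of 0.05 in edgeR's test. The valyl enzyme Vars had the lowest value of the family. It was at 8.90, 11.6, 14.997 and 12.1 CPM in the wild-type libraries and at 10.6, 9.19, 8.57 and 7.65 CPM in the knockout libraries. Wild-type replicate 1 lay inside the knockout range, and the other wild-type libraries lay above it. Knockout over wild type gave a log2 fold change of -0.41 ± 0.16 (edgeR adjusted p = 0.223). Without wild-type replicate 1 it was -0.54 and passed (edgeR adjusted p = 0.0365).

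The tryptophanyl enzyme Wars, an interferon-induced gene in many cell types, was at 40.2, 31.8, 43.6 and 39.8 CPM in wild type and at 36.1, 28.1, 35.2 and 29.1 CPM in knockout. Wild-type replicate 2 was the low one of its group, and the other wild-type libraries stood above all knockout libraries. Its log2 fold change was -0.28 ± 0.12 (edgeR adjusted p = 0.258). In the same class the tyrosyl enzyme Yars was at 15.5, 12.3, 14.2 and 14.5 CPM in wild type and 17.6, 14.97, 18.2 and 15.6 CPM in knockout. Only wild-type replicate 1 reached into the knockout range. The log2 fold change of Yars was 0.23 ± 0.11 (edgeR adjusted p = 0.276).

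Eprs, which charges both glutamate and proline tRNAs and anchors the multisynthetase complex, was at 84.3, 62.0, 74.2 and 73.4 CPM in wild type and 80.7, 88.3, 89.1 and 83.6 CPM in knockout. Again wild-type replicate 1 alone overlapped the knockout libraries, and wild-type replicate 2 was lowest. The log2 fold change was 0.22 ± 0.10 (edgeR adjusted p = 0.281). The 8 enzymes of the multisynthetase complex had 6 positive values and a median of 0.16, and the 12 cytosolic enzymes outside it 7 positive values and a median of 0.069. None of the 8 had an unadjusted p under 0.05 in edgeR's test, and in the other tools none passed after adjustment.

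Cytosolic class II enzymes showed a positive log2 fold change in 6 of 10 cases (median 0.069). The threonyl enzyme Tars was at 25.8, 11.7, 18.0 and 16.3 CPM in the wild-type libraries and at 23.7, 22.3, 23.6 and 20.3 CPM in the knockout libraries. The wild-type libraries spanned the knockout range on both sides. Its coefficient of variation was 32.6% in wild type and 6.96% in knockout. The estimate was 0.33 ± 0.20 on the log2 scale (edgeR adjusted p = 0.388). Without wild-type replicate 1 it was 0.54 and passed (edgeR adjusted p = 0.0402), and without wild-type replicate 2 it was 0.17. The aspartyl (Dars), histidyl (Hars) and seryl (Sars) enzymes of the same class had log2 fold changes of 0.20 ± 0.14, 0.074 ± 0.18 and -0.093 ± 0.098. Vars and Tars were thus the members past the threshold without wild-type replicate 1, 2 of 36 where 9.46% of all genes passed.

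The phenylalanyl enzyme of the cytosol is built from the products of Farsa and Farsb, and their estimates had opposite signs. Farsa, the catalytic subunit gene, was at 7.50, 5.27, 7.64 and 8.88 CPM in wild type and 7.53, 5.51, 4.73 and 6.33 CPM in knockout. Farsb was at 12.0, 10.5, 13.3 and 14.2 CPM in wild type and 13.7, 12.7, 13.8 and 13.5 CPM in knockout. Their log2 fold changes were -0.29 ± 0.18 and 0.10 ± 0.11 (edgeR adjusted p = 0.405 and 0.633), and the difference between the genes was not tested. Of the enzymes that serve both compartments, Kars had -0.11 ± 0.12 and Gars 0.065 ± 0.096 on the log2 scale. Among the promoters searched, those of 5 genes held the ATF4 core. Their log2 fold changes were -0.0083 (Aars), 0.065 (Gars), 0.071 (Iars), 0.33 (Tars) and 0.23 (Yars). Tars and Yars were the highest of the 20 cytosolic genes, and the others lay within the range of the rest.

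The mitochondrial enzymes other than Lars2 were measured with 15 to 290 counts per gene and library, against 107 to 2707 for the cytosolic ones, so their estimates are less firm. In class II, 6 of 7 had negative values, with a median of -0.16. The alanyl enzyme Aars2 was at 1.50, 1.99, 1.87 and 2.07 CPM in wild type and 1.59, 1.21, 1.37 and 1.48 CPM in knockout. Wild-type replicate 1 alone reached the knockout range. The log2 fold change of Aars2 was -0.40 ± 0.20 (edgeR adjusted p = 0.291). The histidyl enzyme Hars2, at 5.77, 6.83, 6.15 and 4.85 CPM in wild type and 5.94, 7.04, 7.77 and 6.78 CPM in knockout, was the only class II member above 0, at 0.22 ± 0.14 (adjusted p = 0.387). Its groups overlapped widely. The threonyl enzyme Tars2 was at 4.70, 3.52, 4.70 and 4.12 CPM in wild type and 3.41, 3.36, 3.75 and 4.34 CPM in knockout. Its estimate was -0.19 ± 0.15 on the log2 scale (edgeR adjusted p = 0.506). The prolyl (Pars2), seryl (Sars2), phenylalanyl (Fars2) and asparaginyl (Nars2) enzymes had log2 fold changes of -0.21 ± 0.25, -0.16 ± 0.23, -0.10 ± 0.16 and -0.091 ± 0.25, each within its own error.

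Mitochondrial class I held the single gene whose genotypes were separated. Yars2, the tyrosyl enzyme of mitochondria, was at 1.40, 1.08, 1.49 and 1.26 CPM in wild type and 1.71, 1.70, 1.94 and 1.51 CPM in knockout. The gap was narrow, from 1.49 in wild-type replicate 3 to 1.51 in knockout replicate 4, and rested on 29 to 52 counts per library. Its log2 fold change was 0.39 ± 0.20 (edgeR adjusted p = 0.310). Values of the other class I genes without Lars2 lay between -0.11 (Cars2) and 0.019 (Wars2). Rars2, the highest mitochondrial gene per length, had a log2 fold change of 0.0063 ± 0.12, and Mars2, the lowest, -0.081 ± 0.31.

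**Figure D4:**
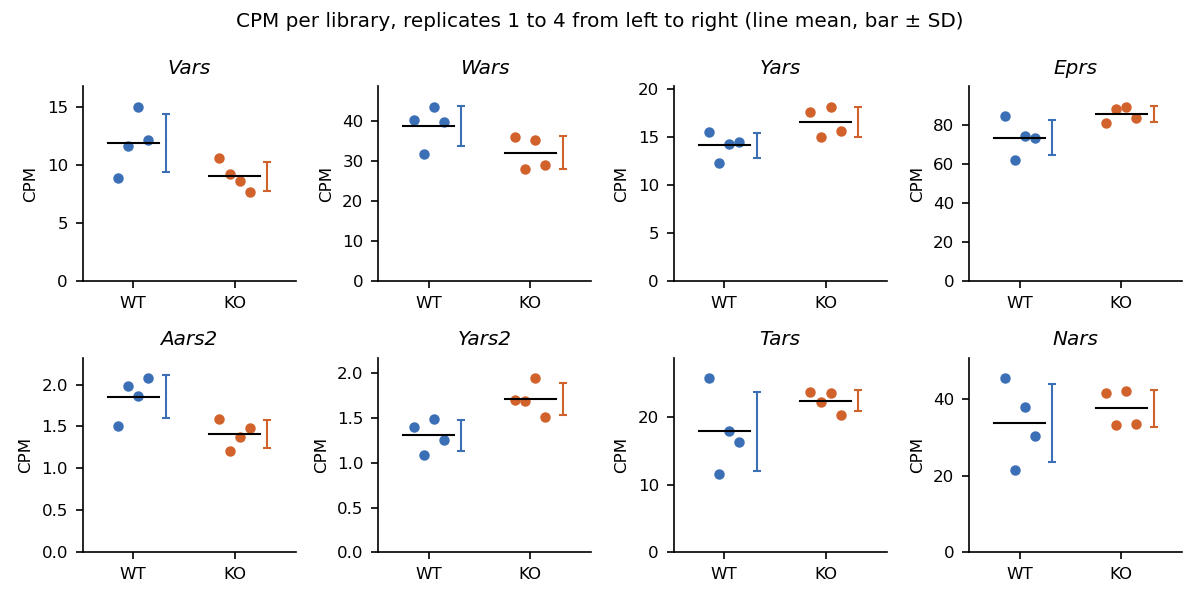
CPM in each library for 8 synthetase genes, with wild type (WT) in blue and knockout (KO) in orange, points in order of replicates 1 to 4, lines for means and side bars for the SD. Only Yars2 shows no overlap, with wild type up to 1.49 and knockout from 1.51 CPM, while Tars and Nars spread most in wild type.

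Cars, Sars2, Nars2 and Ears2 lie on chromosome 7, as does Rpl13a. They stand 577, 162, 191 and 363 tested genes from it in the RefSeq order of GRCm38. Their log2 fold changes were 0.15, -0.16, -0.091 and -0.021, all with an edgeR adjusted p of at least 0.433.

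Between libraries, cytosolic synthetase levels on the TMM scale went broadly with the exocrine share, with knockout replicate 4 as an exception. The cytosolic genes summed to 522, 391, 495 and 459 CPM in the wild-type libraries and to 504, 472, 515 and 454 CPM in the knockout libraries. Wild-type replicate 2, with 2.04% acinar RNA, was lowest, and wild-type replicate 1 and knockout replicate 3, with 26.3 and 27.7%, were highest. Knockout replicate 4, with 17.6%, went the other way. Its sum of 454 CPM lay below those of wild-type replicate 4 (4.96%, 459 CPM) and knockout replicate 2 (5.31%, 472 CPM). For 11 of the 20 cytosolic genes (55%) wild-type replicate 2 was the lowest of the 8 libraries, against 2 of the 15 mitochondrial genes (13.3%) and 17% of all genes. The mitochondrial sums stayed between 55.0 and 61.6 CPM. The ratio of the sums does not depend on how libraries are scaled. It was 8.71, 6.85, 8.06 and 8.23 in wild type and 8.72, 8.54, 8.35 and 8.25 in knockout, so wild-type replicate 2 stood below the rest. The coefficient of variation was larger in wild type than in knockout for 15 of the 20 cytosolic genes (75%) and 9 of the 15 mitochondrial genes (60%), against 55.5% of all genes.

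**Figure D5:**
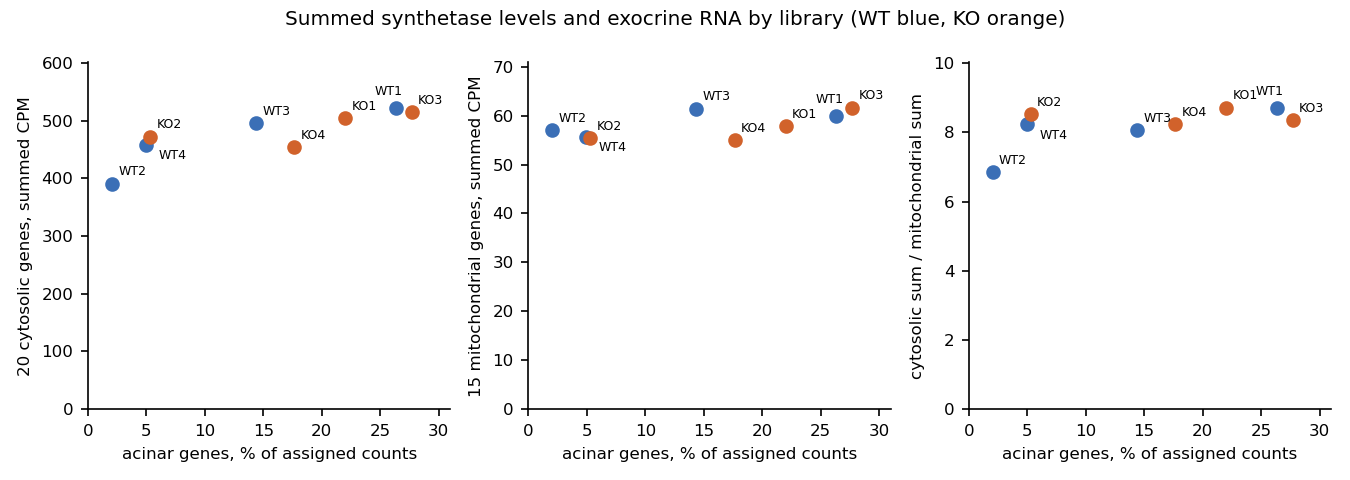
Summed CPM of the 20 cytosolic genes (left), summed CPM of the 15 mitochondrial genes without Lars2 (middle) and their ratio (right) against the percentage of assigned counts on acinar markers, one point per library. The cytosolic sum runs from 391 CPM in wild-type replicate 2 to 522 CPM in wild-type replicate 1, and the ratio is 6.85 in wild-type replicate 2 and 8.06 to 8.72 elsewhere.

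A fit with both genotype and acinar share, chosen after the data were seen, gave the change per 10 percentage points of acinar share. The median over the cytosolic genes was 0.11 on the log2 scale, with 18 of 20 positive, and over the mitochondrial genes 0.025, with 10 of 15 positive, beside -0.016 for all genes. The contrast between the compartments depended on single libraries: without wild-type replicate 1 the medians were 0.11 and 0.093 (13 of 15 mitochondrial values positive), and without wild-type replicate 2 they were 0.081 and 0.059. Only Nars, the asparaginyl enzyme, passed in edgeR's quasi-likelihood test (0.29 ± 0.07, adjusted p = 0.0411), where 3.02% of all genes passed as higher. It did not pass in 7 of the 8 fits that left out a library (edgeR adjusted p of 0.0558 to 0.324), passed only without knockout replicate 2 (0.00874), and its value was -0.089 with no composition factor. Nars was at 45.3, 21.4, 37.9 and 30.2 CPM in wild type and 41.5, 33.3, 42.0 and 33.5 CPM in knockout, lowest in wild-type replicates 2 and 4. At an unadjusted p under 0.05 there were 9 of 20 cytosolic and 1 of 15 mitochondrial genes, all higher with acinar share, against 7.81% of all genes. Leaving out 1 library lowered the cytosolic count to 3 (wild-type replicate 1), 4 (knockout replicate 3), 5 (wild-type replicate 2) or 6 (wild-type replicate 4). It was 7 without wild-type replicate 3 or knockout replicate 1, 8 without knockout replicate 4, and 10 without knockout replicate 2. These directions depend on the scaling. With no composition factor all 20 cytosolic values were negative, 17 of them past an adjusted p of 0.05, as were 77.5% of all genes. Relative to the median of all genes the cytosolic median was 0.13 under both scalings, and the mitochondrial one 0.040 and 0.039. Whether the cytosolic difference between libraries comes from acinar cells was not tested.

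Among the partners of tRNA charging, all 19 listed genes were tested, 13 had positive log2 fold changes, the median was 0.13, and 0 passed at 0.05 after adjustment in edgeR, with 4 at an unadjusted p under 0.05 (21.1%), all higher in knockout, beside 8.42% of all genes. The smallest p belonged to Sephs2, which makes the selenium donor for selenocysteine. Sephs2 was at 7.89, 2.71, 5.11 and 3.75 CPM in wild type and 10.9, 16.6, 9.59 and 7.78 CPM in knockout. Its log2 fold change was 1.21 ± 0.36 (edgeR adjusted p = 0.173). Knockout replicate 2, where it was highest, also held liver markers at 0.634% of counts, against at most 0.000376% in wild type, and the part of these markers in the result was not tested.

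Aimp1, a scaffold of the multisynthetase complex, was at 11.2, 7.92, 9.43 and 7.96 CPM in wild type and 10.4, 11.3, 12.3 and 12.7 CPM in knockout. Wild-type replicate 1 again lay within the knockout range. Its estimate was 0.36 ± 0.13 on the log2 scale (edgeR adjusted p = 0.209). Pstk, the kinase that acts on seryl-tRNA before selenocysteine is formed, had a log2 fold change of 0.65 ± 0.27 (edgeR adjusted p = 0.237).

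Amino acid response genes, the programme that raises synthetase transcripts when ATF4 is active, leaned upward, with 25 of 33 above 0, where 51.3% of all genes were, and a median log2 fold change of 0.20. After adjustment none passed in edgeR's test, with 4 higher and 1 lower at an unadjusted p under 0.05 (15.2%), beside 18.7% of all genes. The lower one was Ppp1r15a, which encodes a phosphatase subunit that restores translation, with means of 19.05 ± 2.38 (wild type) and 12.2 ± 1.77 CPM (knockout) and no overlap between the groups, as for 4.66% of all genes in that direction (edgeR adjusted p = 0.116). Mthfd2, a mitochondrial folate enzyme, had a log2 fold change of 0.66 ± 0.25 (adjusted p = 0.221 in edgeR) and Vldlr, a lipoprotein receptor, one of 0.25 ± 0.10 (adjusted p = 0.230). Atf4 itself, chosen after its values were seen, had -0.29 ± 0.17. Asns, the asparagine synthetase gene and a classical ATF4 target, likewise chosen afterwards, was at 59.8, 14.8, 32.8 and 22.1 CPM in wild type and 55.5, 26.5, 56.0 and 39.6 CPM in knockout. As with the cytosolic synthetases, Asns was lowest in wild-type replicate 2 and highest in the 3 libraries richest in acinar RNA, whose part in the result was not tested. The same held for Psat1, Phgdh and Mthfd2, but not for every gene of the list, Atf4 among them. The lean of the list was not examined in a fit that includes acinar share.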

How the data were processed

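Total RNA of hand-picked islets was made into libraries with the SeqPlex kit, per the labels' protocols, 4 mice per genotype. STAR 2.4.1, Partek and build mm9 are named in the submitters' processing notes; their roles, the annotation and the strand setting are not known from the sources at hand. The authors deposited estimated counts per gene (9.98 to 12.4% of values per library not whole within 0.01), which were rounded, and a second table in RPM, in which each value less 0.0001 is the count over a constant of 37.3 to 67.5 M per library.

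The gene-wise test used edgeR 4.0.16 (R 4.3.3), with TMM, filterByExpr and the robust quasi-likelihood test for genotype (Benjamini-Hochberg over 13617 genes, threshold 0.05). Standard errors come from the F statistic. The fit was tested on simulated data, with changed genes drawn from the better-counted ones. It recovered 26% of 50 genes changed 1.5-fold, 82% of 50 changed 2-fold and 96% of 100 changed 4-fold. Of 167 genes called there, 17 were not among the changed ones. Single shares were compared with exact permutation tests (SciPy 1.17.1). Transcript lengths came from GENCODE M21 and promoters from RefSeq. Alternatives included DESeq2 1.42.0, limma 3.58.1 (voom, and trend on log2 of RPM plus 1), other scalings and filters, covariates, the replicate number as a block, and each library left out. Genes named in full are Lars2, the 4 smallest p-values per compartment, members past the threshold or without overlap, the 3 highest and 2 lowest per length, and the 3 smallest p-values of each other list; any other gene was picked with its values known. The members and lists were chosen with earlier results of these data known. Counts of PCR reads without molecular identifiers overstate the number of independent molecules.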

Additional observations from a re-analysis of the deposited data

Results flagged for a closer look

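Iars2, the mitochondrial isoleucyl enzyme, was at 5.78 CPM in knockout replicate 4, far from the other knockout libraries at 7.47 to 7.64 CPM. Vars2, the mitochondrial valyl enzyme, was at 2.67 CPM in the same library and at 3.18 to 3.24 CPM in the other knockout libraries. The share of Rn45s was 38.9% in wild-type replicate 4 and 36.7 to 37.0% in the other wild-type libraries. In each case 1 sample stood apart from the 3 others by more than Dixon's 95% critical value for a group of 4. Of 88 groups examined these were 3, and chance flags about 1 in 20 groups.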

How the results depend on the processing

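Over the alternatives with all 8 libraries no synthetase gene passed an adjusted p of 0.05 (DESeq2 gave none for 6 of the 36). The count over all genes was 2, except for 3 with no filter on low counts, 48 with no composition factor and 517 with DESeq2. When each library was left out it ran from 2 to 1313, with the maximum when wild-type replicate 1 was dropped and 5 when knockout replicate 4 was, and the count of synthetase genes from 0 to 2. The mitochondrial median log2 fold change was -0.22 with no composition factor and ran from -0.12 to -0.029 when a library was left out. The cytosolic median ran from 0.0076 to 0.15 when a library was left out and was -0.021 with no composition factor and -0.036 with limma-trend on the authors' RPM, where the median of all genes was -0.11 and -0.088. Log2 fold changes near 0 changed sign in several genes, none of them past the threshold. With no composition factor these were Iars -0.030, Farsb -0.025, Gars -0.044, Hars -0.018, Rars2 -0.11, Wars2 -0.12. With limma-trend they were Iars -0.065, Farsb -0.031, Gars -0.072, Hars -0.042, Rars2 -0.11, Wars2 -0.098. With the acinar share as a covariate they were Aars 0.024, Hars -0.035, Lars2 -0.029, Rars2 -0.064, and with Xist as a covariate Ears2 0.0043, Iars2 0.0020. Rars2 was -0.0059 when Rn45s, Lars2 and Mir6236 were taken out of library sizes and -0.0036 with no filter. Genes whose sign turned when a library was left out had these ranges: Mars2 -0.35 to 0.18, Iars -0.0045 to 0.14, Hars -0.063 to 0.16, Nars -0.011 to 0.32, Rars2 -0.034 to 0.065, Cars2 -0.24 to 0.087, Ears2 -0.095 to 0.069, Wars2 -0.039 to 0.054, Aars -0.078 to 0.060, Nars2 -0.26 to 0.065, Qars -0.17 to 0.0067, Iars2 -0.11 to 0.036. The acinar term of Nars was -0.089 with no composition factor. The cause was not tested.

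Whether the numbers in the labels pair the libraries was not tested. Same-numbered libraries correlated at 0.038, 0.21, 0.16 and 0.15. Wild-type replicates 2, 3 and 4 each correlated best with the knockout library of the same number, and wild-type replicate 1 with knockout replicate 3 (0.29). With the replicate number as a block 2 genes and 0 synthetase genes passed, with medians of 0.10 for the cytosolic and -0.083 for the mitochondrial genes. Depth limits the mitochondrial genes most, at 15 to 290 counts per library.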
